A study of Mus musculus with 12 samples.

Results

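The genes described here are those of the unfolded protein response (UPR) and the chaperones of the endoplasmic reticulum (ER), 33 genes chosen by symbol. Of these, 32 are listed among the 15002 genes of the expression tables, and all 32 were abundant enough to be tested with the 11900 genes that passed the filter on low counts. Derl3 is not among the listed genes, and its expression was not analysed here. RNA was sequenced from IEC4.1, a mouse intestinal epithelial cell line labelled wild type, in 4 groups of 3 libraries. Cells of the siR_Ctrl group had received a scrambled siRNA as control, and those of siR_Nostrill several pooled siRNAs that target Nostrill, a long noncoding RNA. Transfection had run for 24 h in every group. The siR_Ctrl + IFN-γ and siR_Nostrill + IFN-γ groups were then given IFN-γ, at 1 ng/ml for 4 h by a figure legend of the study. The sample labels carry a time of 24 h for every library. All 4 groups are of a single cell line and all were transfected, so none shows untransfected cells, and Nostrill itself was not analysed here. The study describes biological triplicates, and the labels do not say more about where replicates came from, so the tests measure the spread between these libraries. The comparisons ask what IFN-γ did to these genes, what the Nostrill siRNAs did to them, and whether the siRNAs altered the difference with IFN-γ.

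Proteins that enter the ER are folded there by chaperones such as BiP (Hspa5) and GRP94 (Hsp90b1), by the lectins calreticulin (Calr) and calnexin (Canx), and by protein disulfide isomerases, and those that fail to fold are carried out to the proteasome by ER-associated degradation (ERAD). When unfolded proteins accumulate, the membrane sensors IRE1α (Ern1), PERK (Eif2ak3) and ATF6 (Atf6) signal to the nucleus. IRE1α splices the mRNA of Xbp1, ATF6 is cleaved into a transcription factor, and PERK phosphorylates eIF2α, which slows translation in general and favours that of Atf4. XBP1 and ATF6 drive genes of folding and ERAD, while ATF4 and CHOP (Ddit3) drive genes of amino acid supply and of the stress response such as Asns, Trib3, Chac1 and Ppp1r15a. ATF4 is also made when other kinases phosphorylate eIF2α. Gene-level counts show neither the splicing of Xbp1, nor the cleavage of ATF6, nor the phosphorylation of eIF2α.

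The branches of the response are known to act through short promoter sites, and matches to these are shown because folding genes and ATF4 targets, which are described separately below, differ in the matches they hold. Neither an ER stress response element nor a C/EBP-ATF response element was found in 15 of the listed genes with a promoter, among them Ddit3, Ppp1r15a, P4hb, Pdia3 and Pdia4. Promoters of 300 bases (250 before and 50 after the transcript start, RefSeq, GRCm38.p6) were found for 29 of the 33 genes, and none was given for Atf6, Derl1, Hyou1 or Manf. The ER stress response element (ERSE) was searched as CCAAT, 9 bases of any kind and CCACG, on both strands. It occurred in 9 of the 29 genes (31.0%) and in 37 of 27025 genes with a promoter (0.137%). The matches follow, written 5′ to 3′ on the strand of the match with both fixed parts in capitals.
Hspa5, chr2:34772025-34772043: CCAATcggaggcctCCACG
Syvn1, chr19:6046532-6046550: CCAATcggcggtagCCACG
Hsp90b1, chr10:86705638-86705656: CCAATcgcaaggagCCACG
Hsp90b1, chr10:86705533-86705551: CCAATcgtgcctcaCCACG
Calr, chr8:84847075-84847093: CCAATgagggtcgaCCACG
Canx, chr11:50325800-50325818: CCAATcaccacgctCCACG
Pdia6, chr12:17266491-17266509: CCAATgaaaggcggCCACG
Dnajc3, chr14:118937827-118937845: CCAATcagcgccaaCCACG
Creld2, chr15:88819520-88819538: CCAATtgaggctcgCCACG
Derl3, chr10:75893242-75893260: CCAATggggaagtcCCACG

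The shorter ERSE-II (ATTGG, 1 base, CCACG) occurred in 2 of the 29 genes (6.90%), Herpud1 and Dnajb11, and in 0.0444% of all genes. The C/EBP-ATF response element (CARE), searched as TGATGNAAN, is the kind of site that ATF4 dimers bind. It occurred in 4 of the 29 genes (13.8%), Asns, Chac1, Herpud1 and Trib3, and in 4.50% of all genes. The interferon-γ activated site (GAS), searched as TTCNNNGAA, occurred in 1 of the 29 genes, Eif2ak3 (3.45%), and in 9.55% of all genes. The core of the UPR element, TGACGTGG, occurred in none of the 29 and in 0.714% of all genes. Herpud1 held both an ERSE-II and a CARE, and no match in these genes overlapped a match of another motif. The ERSE-II and CARE matches of the genes follow in the same form.
Herpud1 ERSE-II, chr8:94386377-94386387: ATTGGgCCACG
Dnajb11 ERSE-II, chr16:22857852-22857862: ATTGGcCCACG
Herpud1 CARE, chr8:94386316-94386324: TGATGcAAc
Chac1 CARE, chr2:119351048-119351056: TGATGcAAc
Asns CARE, chr6:7693224-7693232: TGATGaAAc
Trib3 CARE, chr2:152344039-152344047: TGATGtAAa

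Whole promoters are shown for the 2 genes that carried the clearest differences with IFN-γ, Syvn1 and Trib3, and for Hspa5, the reference gene of the response. They are written on the strand of the gene with the fixed parts of the matches in capitals. In the promoter of Trib3, the CARE lies on the opposite strand, 14 to 22 bases after the start, and therefore reads tTTaCATCA. A match is a stretch of letters and not an observed binding site.
Syvn1, chr19:6046326-6046625, plus strand: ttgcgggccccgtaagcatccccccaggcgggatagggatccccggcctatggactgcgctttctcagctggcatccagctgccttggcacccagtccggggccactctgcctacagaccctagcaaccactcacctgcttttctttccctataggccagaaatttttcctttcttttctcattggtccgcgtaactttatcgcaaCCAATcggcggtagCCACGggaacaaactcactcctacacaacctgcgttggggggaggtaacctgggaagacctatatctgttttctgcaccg
Trib3, chr2:152344011-152344310, minus strand: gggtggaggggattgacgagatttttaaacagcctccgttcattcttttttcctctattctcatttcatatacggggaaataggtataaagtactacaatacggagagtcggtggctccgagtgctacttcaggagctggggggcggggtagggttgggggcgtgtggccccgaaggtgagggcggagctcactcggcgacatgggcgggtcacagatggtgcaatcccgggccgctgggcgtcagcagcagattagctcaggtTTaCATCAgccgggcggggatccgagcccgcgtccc
Hspa5, chr2:34771840-34772139, plus strand: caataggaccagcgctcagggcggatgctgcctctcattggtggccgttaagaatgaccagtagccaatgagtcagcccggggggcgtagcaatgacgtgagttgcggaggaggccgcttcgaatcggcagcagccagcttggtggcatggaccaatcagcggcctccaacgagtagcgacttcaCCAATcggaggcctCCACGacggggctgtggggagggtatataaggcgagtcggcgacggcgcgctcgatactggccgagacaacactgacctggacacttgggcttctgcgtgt

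Reads assigned to genes numbered 17824306 to 19093204 per library, with 18153496 as the median. Marker genes of 4 cell types were checked as TPM, a level per transcript length. Of 10 epithelial markers 5 are listed, and 1 of these (Krt19, median 2.32 TPM) had a median above 1, while Krt8 (0.23), Krt18 (0.07), Vil1 (0.05) and Cdx2 (0) were at or near 0. All 7 fibroblast or mesenchymal markers had a median above 1, with Vim at 2568, Col1a1 at 318 and Col1a2 at 230.2 TPM. The summed level of the mesenchymal markers was 2780 to 3869 TPM in siR_Ctrl, 3064 to 4015 in siR_Ctrl + IFN-γ, 2618 to 3237 in siR_Nostrill and 3256 to 3371 in siR_Nostrill + IFN-γ libraries. The labelled epithelial type was therefore not borne out by the listed markers, and the cells are called IEC4.1 cells. The summed level of the 5 listed epithelial markers was 2.12 to 4.14 TPM in siR_Ctrl, 2.59 to 3.88 in siR_Ctrl + IFN-γ, 2.26 to 3.34 in siR_Nostrill and 1.9 to 2.66 in siR_Nostrill + IFN-γ libraries. Of the 6 macrophage or leukocyte markers 3 are listed, and 1 of these (Cd68, 1.27 to 3.2 TPM) had a median above 1, about the level of Krt19, while Csf1r had a median of 0.37 and Ptprc of 0. Their sum was 2.05 to 3.33, 2.06 to 2.83, 1.68 to 3.26 and 3.01 to 3.46 TPM in the same order of groups. The 3 listed endothelial markers summed to at most 0.29 TPM in any library. Bulk RNA cannot tell apart fewer cells of a type from less RNA per cell.

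The libraries also differed in a way that followed transcript length. Across all genes tested, how far each library lay from the mean of its group had a Spearman correlation with effective length from -0.78 (siR_Ctrl + IFN-γ replicate 2) to 0.81 (siR_Ctrl replicate 1), a description over genes, which are not replicates. The UPR and ER chaperone genes moved with it. In siR_Ctrl replicate 1, the 16 genes with the longer transcripts were at a median of 0.16 above and the 16 with the shorter at 0.16 below their group mean on the log2 scale, and in siR_Ctrl + IFN-γ replicate 2 these medians were -0.14 and 0.21. Sdf2l1 (872 nt), Creld2 (1128 nt), Manf (632 nt), Ddit3 (665 nt) and Atf4 (1371 nt) are among the shorter, and Edem1 (5619 nt), Atf6 (7247 nt), Sel1l (6039 nt) and Canx (4051 nt) among the longer. Calls among the genes are therefore counted both from the counts as deposited and from a fit in which a smooth trend with length was removed from each library. This trend was taken from each library's deviation from the mean of all 12 libraries. Its removal can therefore also take out differences between groups that follow length. Against that mean, the correlation with length was -0.65, -0.64 and 0.22 in siR_Nostrill and 0.46, 0.32 and -0.24 in siR_Nostrill + IFN-γ libraries. In siR_Ctrl libraries it was 0.77, -0.46 and 0.02, and in siR_Ctrl + IFN-γ libraries 0.10, -0.69 and 0.61. How far the trend came from the preparation of the RNA was not tested.

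**Figure D1:**
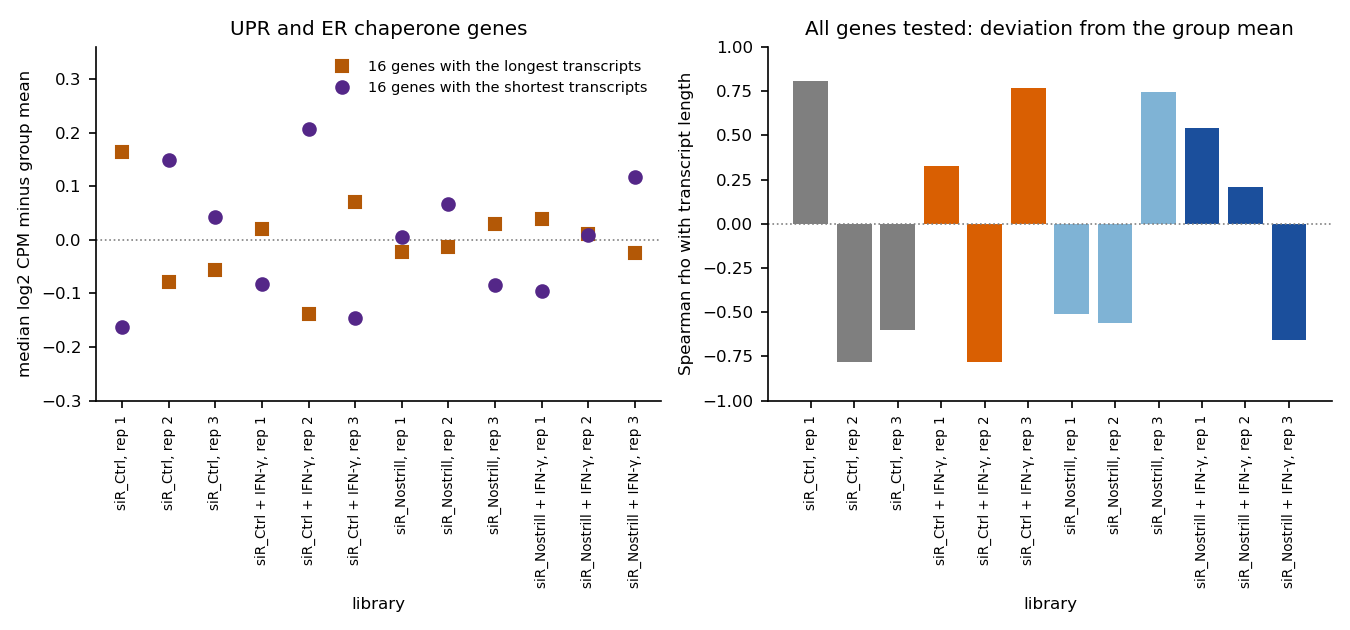
Left, median log2 CPM minus the group mean of the 16 UPR and ER chaperone genes with longer (squares) and the 16 with shorter transcripts (circles) in each of 12 libraries; right, bars of the Spearman correlation between the deviation from the group mean and effective transcript length over all genes tested, coloured by group. The medians of the long and short genes lie on opposite sides of 0 in 11 of the 12 libraries, the exception being siR_Nostrill + IFN-γ replicate 2.

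Folding genes were the most abundant of the set. By median TPM over the 12 libraries, Calr came first at 891 (range 696 to 1089), followed by P4hb, the classical protein disulfide isomerase, at 719.7 (586 to 887), Hsp90b1 at 532 (466 to 706) and Hspa5 at 504 (393 to 679). These 4 genes made up 46.5% to 53.3% of the summed TPM of the set, which came to 4616 to 6304 per library. Neighbours in the order were not always apart, and Hsp90b1 was above Hspa5 in 7 of 12 libraries.

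Atf4 was the most abundant transcription factor (471 TPM, 399 to 531), far above Xbp1 (30.3, 24.7 to 35.0). Next to it stood Pdia3, the isomerase that works with calnexin and calreticulin (402), Manf, a small ER protein that binds BiP (357), Pdia6 (227), Canx (181) and Creld2, an ER protein with a role in disulfide exchange (129). Pdia4 was at 106, Dnajb11, a BiP co-chaperone, at 102, Ddit3 at 82.3, Asns, which makes asparagine, at 79.4, and Derl1, a channel protein of ERAD, at 77.4. Ddit3 was above Asns, and Asns above Derl1, in only 7 of 12 libraries each.

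The lower part of the order held most of ERAD and the sensors. Dnajc10, a co-chaperone that reduces disulfides, was at 68.7 TPM, Hyou1, a nucleotide exchange factor of BiP, at 60.5, Herpud1, an adaptor of the ERAD ligase, at 55.6, and Sdf2l1, a partner of Dnajb11, at 41.1. Syvn1, the ubiquitin ligase HRD1, was at 28.7, Trib3, a pseudokinase, at 27.6, Ppp1r15a, which directs a phosphatase to eIF2α, at 22.6, Chac1, which degrades glutathione, at 21.9, and Derl2 at 19.7. Dnajc3, a co-chaperone, was at 16.1, Atf6 at 12.7, Edem1, which hands misfolded glycoproteins to ERAD, at 11.3, Sel1l, the partner of HRD1, at 8.96, Eif2ak3 at 8.12 and Dnajb9, a co-chaperone, at 5.995. Ern1 was lowest, at 3.12 (1.28 to 10.01), and still above 35.8% of the listed genes.

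**Figure D2:**
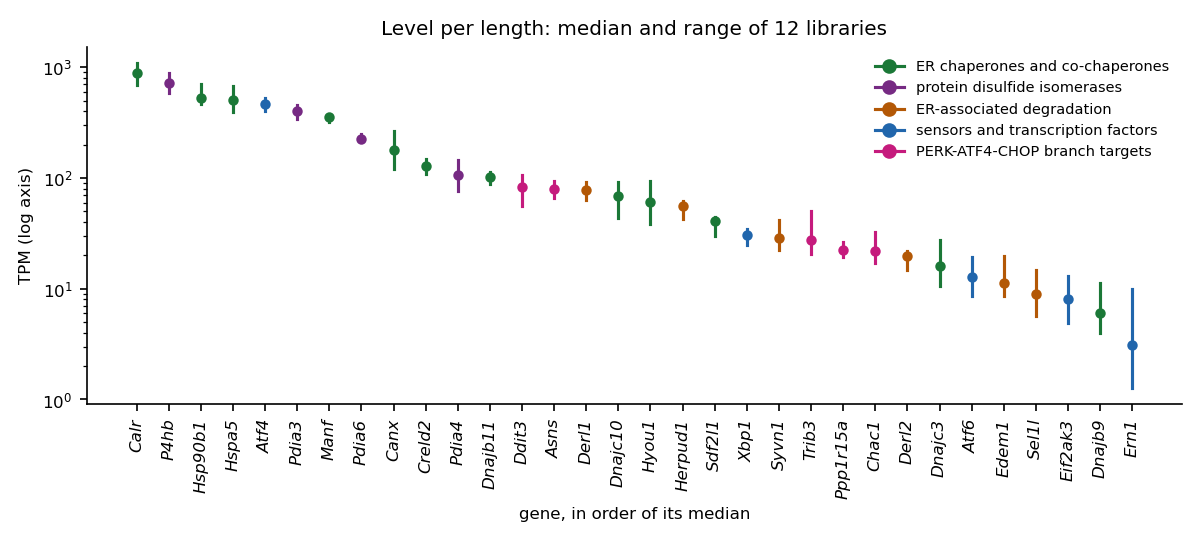
Median TPM (points) and the range over 12 libraries (lines) of the 32 listed genes on a logarithmic axis, in order of the median and coloured by role. Calr is highest at 891 TPM and Ern1 lowest at 3.12 TPM.

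From here on, values are CPM unless TPM is named, and differences are log2 fold changes. CPM are the reads of a gene scaled to library size with TMM factors, the same scale as the test. The comparisons share libraries and are not independent of each other.

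IFN-γ raised Trib3 in siR_Ctrl cells, and no other gene of the set passed edgeR's test there. Trib3 was at 25.1, 28.3 and 29.2 CPM in the siR_Ctrl libraries and at 52.6, 75.5 and 56.8 CPM with IFN-γ. All 3 treated libraries lay above all 3 untreated ones. The log2 fold change came to 1.16 (standard error 0.18, adjusted p = 0.0016 by the quasi-likelihood test of edgeR, adjusted over all genes tested by Benjamini-Hochberg), and leaving out each of the 12 libraries in turn gave 1.0 to 1.26 with an adjusted p of at most 0.0080. Of the 32 genes, 1 was thus called (3.12%), against 5.45% of all genes tested. An unadjusted p below 0.05 was reached by 7 (21.9%), against 14.6% of all genes. Removing the length trend gave 4 calls (12.5%), all higher, against 11.1% of all genes. The 4 were Trib3, Syvn1, Atf4 and Atf6. DESeq2 called 2 of the 32, Trib3 and Syvn1, against 6.33% of the genes to which it gave an adjusted p, and limma on log2(FPKM + 1) called Trib3, against 4.76% of the genes it tested.

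The other targets of the PERK-ATF4-CHOP branch had values on the same side, as did Atf4. Eif2ak3, which encodes PERK, did not, with group means of 25.9 CPM without and 22.9 CPM with IFN-γ. All 5 branch targets, Trib3 included, had a log2 fold change above 0 for IFN-γ in siR_Ctrl cells (median 0.30). The median over all genes tested was -0.01. All 5 are among the 16 genes with the shorter transcripts, and their median was 0.21 with the length trend removed. Chac1 was at 15.1, 17.1 and 21.5 CPM without and at 19.6, 26.8 and 27.2 CPM with IFN-γ (log2 fold change 0.46, standard error 0.19, adjusted p = 0.29). The groups of Chac1 overlapped. Atf4 was at 302, 446 and 394 CPM without and at 450.4, 623 and 434 CPM with IFN-γ, which again overlapped (0.40, standard error 0.18, adjusted p = 0.32). It was 0.26 without siR_Ctrl replicate 1 and 0.23 without siR_Ctrl + IFN-γ replicate 2. The difference of Atf4 was 0.31 with the length trend removed, and its adjusted p was 0.010 in edgeR. The remaining 3, Ddit3, Asns and Ppp1r15a, had an unadjusted p above 0.05.

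Among ERAD genes, Syvn1 was at 54.7, 50.7 and 53.5 CPM without and at 63.6, 61.4 and 67.2 CPM with IFN-γ. The groups did not overlap, and the log2 fold change of 0.27 (standard error 0.08) had an adjusted p of 0.089 in edgeR. It was called by DESeq2 and with the length trend removed (adjusted p = 0.0044). Herpud1 was at 54.4, 55.9 and 59.4 CPM without and at 60.8, 71.8 and 65.0 CPM with IFN-γ (0.22, standard error 0.09, adjusted p = 0.28). The groups of Herpud1 did not overlap either.

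Folding genes gave no call. Of 12 chaperones and co-chaperones, 9 had a value below 0 (median -0.11). Dnajb9 was at 9.88, 9.73 and 6.60 CPM without and at 6.28, 5.74 and 7.45 CPM with IFN-γ, with overlap (-0.43, standard error 0.18, adjusted p = 0.30). Pdia4, a disulfide isomerase of the BiP complex, was at 175, 181 and 180.2 CPM without and at 164, 153 and 161 CPM with IFN-γ, without overlap (-0.16, standard error 0.07, adjusted p = 0.29). The 4 isomerases ranged from -0.16 to 0.05 and the 5 sensors and transcription factors from -0.64 (Ern1) to 0.40 (Atf4).

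**Figure D3:**
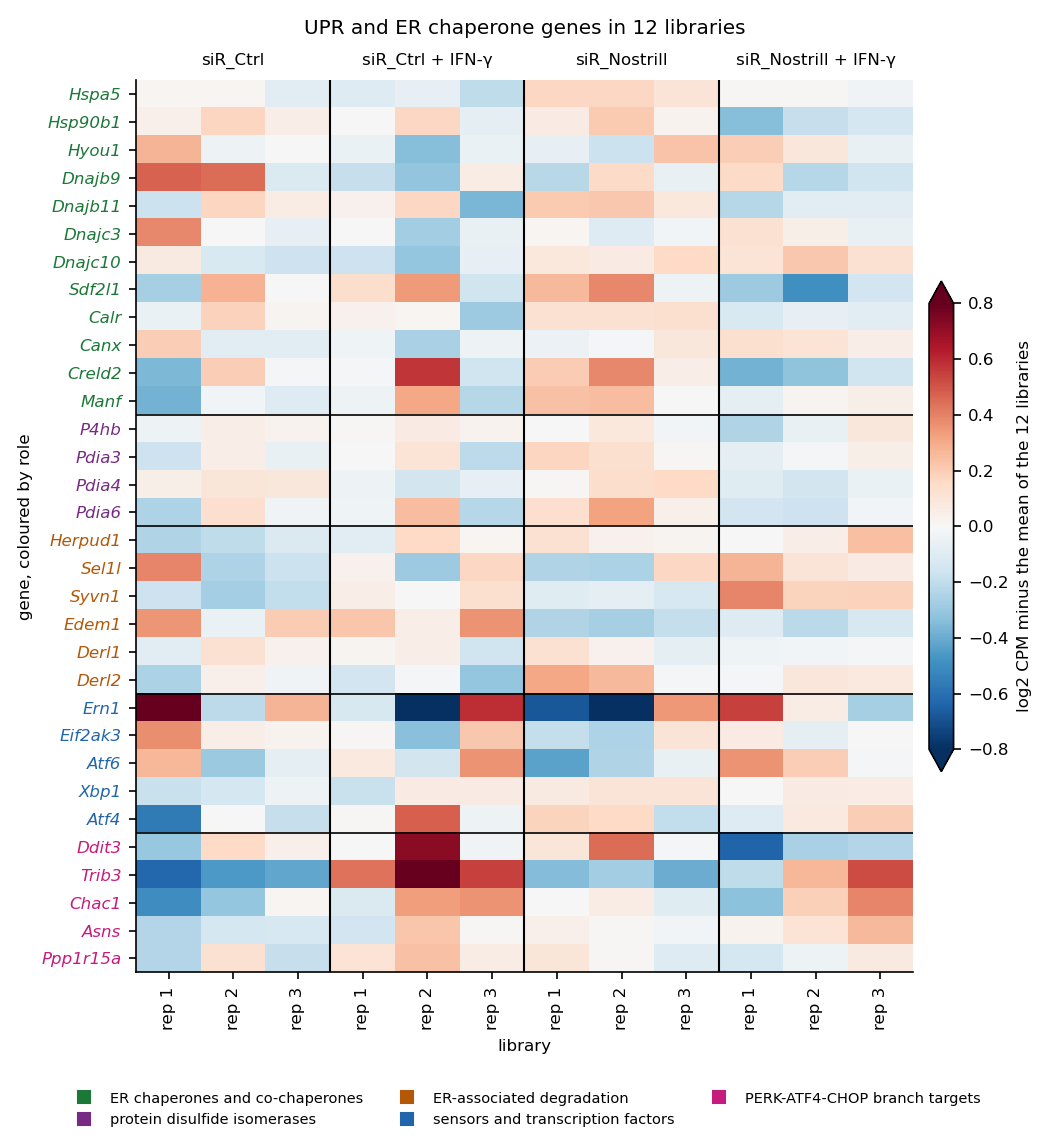
Heat map of log2 CPM minus the mean over 12 libraries for the 32 listed genes (rows, grouped and coloured by role) in each library (columns, by group), with red above and blue below the mean; colours saturate at 0.8. Trib3 is below its mean in all 6 libraries without IFN-γ and above it in 5 of the 6 with IFN-γ, and Edem1 is below its mean in all 6 siR_Nostrill libraries with or without IFN-γ.

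In siR_Nostrill cells, IFN-γ raised Syvn1, and no other gene of the set passed edgeR's test. Syvn1 was at 57.5, 58.3 and 56.1 CPM without and at 80.5, 69.4 and 69.7 CPM with IFN-γ, with every treated library above every untreated one. The log2 fold change came to 0.35 (standard error 0.08, adjusted p = 0.022 in edgeR). Without siR_Nostrill replicate 1, 2 or 3 the adjusted p was 0.066, 0.081 and 0.081, and without siR_Nostrill + IFN-γ replicate 1 it was 0.097, so the call rested on each of these libraries. The log2 fold change was 0.28 to 0.39 over the 12 omissions. Of the 32 genes, 1 was called (3.12%), against 6.78% of all genes tested. Unadjusted, 9 had a p below 0.05 (28.1%), against 21.9% of all genes. After removal of the length trend 6 were called (18.8%), against 18.9% of all genes, Syvn1, Trib3 and Asns higher and Hsp90b1, Creld2 and Sdf2l1 lower. DESeq2 called 6 of the 32, Syvn1 and Trib3 as higher and Hsp90b1, Hspa5, Pdia4 and Sdf2l1 as lower, against 10.5% of its genes. By limma, 3 were called, Syvn1 as higher and Hsp90b1 and Sdf2l1 as lower, against 7.41%. Fitted with only the 2 groups compared, edgeR called 8, namely Syvn1, Trib3 and Atf6 as higher and Hsp90b1, Sdf2l1, Creld2, Dnajb11 and Ddit3 as lower, against 17% of all genes.

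Trib3 again had a positive value in these cells. It was at 30.6, 32.1 and 29.6 CPM without and at 33.8, 46.7 and 55.8 CPM with IFN-γ. The groups did not overlap, although the lowest treated library was close to the highest untreated one. The log2 fold change came to 0.56 (standard error 0.18, adjusted p = 0.089 in edgeR). Leaving out each of the 12 libraries in turn gave 0.38 to 0.74, with an adjusted p of up to 0.24. Trib3 was called in 1 of these fits, without siR_Nostrill + IFN-γ replicate 1 (0.74, adjusted p = 0.021). Its log2 fold change was 0.65 with the length trend removed (adjusted p = 0.0031).

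Of the 6 genes with a negative value and an unadjusted p below 0.05, 4 were chaperones or co-chaperones. Hsp90b1 was at 981, 1082 and 954 CPM without and at 741, 823 and 852 CPM with IFN-γ (log2 fold change -0.32, standard error 0.10, adjusted p = 0.076 in edgeR, 0.0057 in DESeq2 and 0.030 in limma). The groups of Hsp90b1 did not overlap. Sdf2l1 was at 28.9, 31.5 and 23.5 CPM without and at 19.7, 17.2 and 21.7 CPM with IFN-γ, without overlap (-0.52, standard error 0.17, adjusted p = 0.11). Creld2 was at 115, 130.1 and 103 CPM without and at 76.6, 79.9 and 89.2 CPM with IFN-γ, without overlap (-0.50, standard error 0.19, adjusted p = 0.15). Of the 12 fits that left out a library, edgeR called Creld2 in 1, without siR_Ctrl + IFN-γ replicate 2 (adjusted p = 0.0497). In the others its adjusted p was up to 0.43. Sdf2l1 and Creld2 are short transcripts. With the length trend removed their differences were -0.27 and -0.31, with adjusted p of 0.043 and 0.0093 in edgeR. Dnajb11 was at 142, 143 and 130.4 CPM without and at 105, 116 and 116 CPM with IFN-γ (-0.30, standard error 0.13, adjusted p = 0.21). Of the 12 chaperones 8 were below 0, with Hyou1, Dnajc3, Dnajc10 and Canx above it, and all 4 isomerases were below. These signs moved with transcript length, and with the trend removed Hyou1, Dnajc3, Dnajc10 and Canx were below 0 and Dnajb9 and Manf above it.

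Pdia4 was at 170.2, 186 and 189 CPM without and at 158, 153 and 163 CPM with IFN-γ (-0.20, standard error 0.07, adjusted p = 0.11). The groups of Pdia4 did not overlap. Ddit3, which encodes CHOP, was at 39.7, 50.5 and 36.7 CPM without and at 23.8, 31.0 and 31.6 CPM with IFN-γ (-0.55, standard error 0.22, adjusted p = 0.17). Its value with the length trend removed was -0.29 (adjusted p = 0.080), and it was also called in the fit with the replicate number as a block. Ddit3 overlaps Mars1 and Mbd6 in the RefSeq annotation, and Syvn1 overlaps Mrpl49 and Mir6988. Edem1 overlaps Gm35417, Hspa5 Rabepk, Pdia4 Mir704, Dnajb11 Gm30505 and Derl2 Mis12. Overlaps are also annotated for Atf6, Ppp1r15a, Dnajc3, Eif2ak3, Pdia3 and Pdia6. No source used here says whether counting used strand, so reads of the overlaps may be shared. Atf6 was at 47.5, 54.0 and 61.2 CPM without and at 81.7, 73.1 and 63.5 CPM with IFN-γ (0.42, standard error 0.17, adjusted p = 0.18), and its value was 0.16 with the length trend removed.

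Averaged over both siRNAs, IFN-γ raised Trib3 and Syvn1 and lowered Pdia4. Trib3 differed by 0.86 (standard error 0.13, adjusted p = 0.00069) and Syvn1 by 0.31 (standard error 0.06, adjusted p = 0.0037, edgeR), and both were called in all 12 fits that left out a library. For each of these genes the 6 libraries with IFN-γ lay above the 6 without. Pdia4 fell by 0.18 (standard error 0.05, adjusted p = 0.036), with all 6 IFN-γ libraries below the other 6. Its call was lost in 10 of the 12 fits that left out a library, with an adjusted p of up to 0.11, and held without siR_Ctrl replicate 1 (0.037) or siR_Nostrill replicate 1 (0.032). It was also lost with no filter on low counts (0.072), with the replicate number as a block (0.050) and in limma (0.076). With 3 of 32 genes called (9.38%) the set stood beside 9.21% of all genes tested. Without adjustment 8 had a p below 0.05 (25%), against 19.9% of all genes, and with the length trend removed 8 were called (25%), against 20% of all genes.

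Several abundant chaperones had small negative values in this average. Of the 12 chaperones and co-chaperones 11 were below 0 (median -0.14), beside a median of -0.02 over all genes tested. Hsp90b1 differed by -0.19 (standard error 0.07, adjusted p = 0.14), Calr by -0.17 (0.07, 0.21) and Hspa5 by -0.13 (0.05, 0.22, edgeR). With IFN-γ, Hspa5 was at 780.0, 800.5 and 726 CPM in siR_Ctrl cells and at 840.1, 842 and 822 CPM in siR_Nostrill cells. Without it, the values were 847, 847 and 784 CPM and 937, 937 and 899.5 CPM. Calr ranged from 1003 to 1179.6 CPM without and from 852 to 1065 CPM with IFN-γ over both siRNAs. Pooled in this way, libraries with and without IFN-γ overlapped for Calr, as for Hspa5. Both genes also overlapped within siR_Ctrl cells. Neither did within siR_Nostrill cells, where Calr was at 1130 to 1136 CPM without and at 956 to 995 CPM with IFN-γ. Atf6 (0.28, standard error 0.12, adjusted p = 0.22) and Asns (0.16, standard error 0.07, adjusted p = 0.21) had positive values. In the fit without the length trend, Atf4, Atf6 and Asns joined Trib3 and Syvn1 as higher, and Dnajb11 and Hsp90b1 joined Pdia4 as lower. DESeq2 called 5 (Trib3, Syvn1, Pdia4, Hsp90b1 and Hspa5), against 11.1% of its genes, and limma 3 (Trib3, Syvn1 and Hsp90b1), against 9.59%.

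Set beside the promoters, the 10 listed genes with an ERSE or ERSE-II had a median log2 fold change of -0.12 in this average, 8 of them below 0, the exceptions being Syvn1 and Herpud1. The 4 genes with a CARE, Asns, Chac1, Herpud1 and Trib3, were all above 0 (median 0.23). The 15 listed genes that have a promoter with neither had a median of -0.04, with 10 below 0. Herpud1 counts in both of the first groups. The 4 genes with a CARE were also all above 0 for siR_Nostrill without IFN-γ (median 0.21). There, 8 of the 10 genes with an ERSE or ERSE-II were above 0 as well (median 0.13). For siR_Nostrill with IFN-γ, 2 of the 4 were above and 2 below 0. The 4 are among the shorter transcripts (1333 to 1815 nt), and the medians by promoter were not taken with the length trend removed. This is a description of these genes, and the part of the sites in the differences was not tested.

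**Figure D4:**
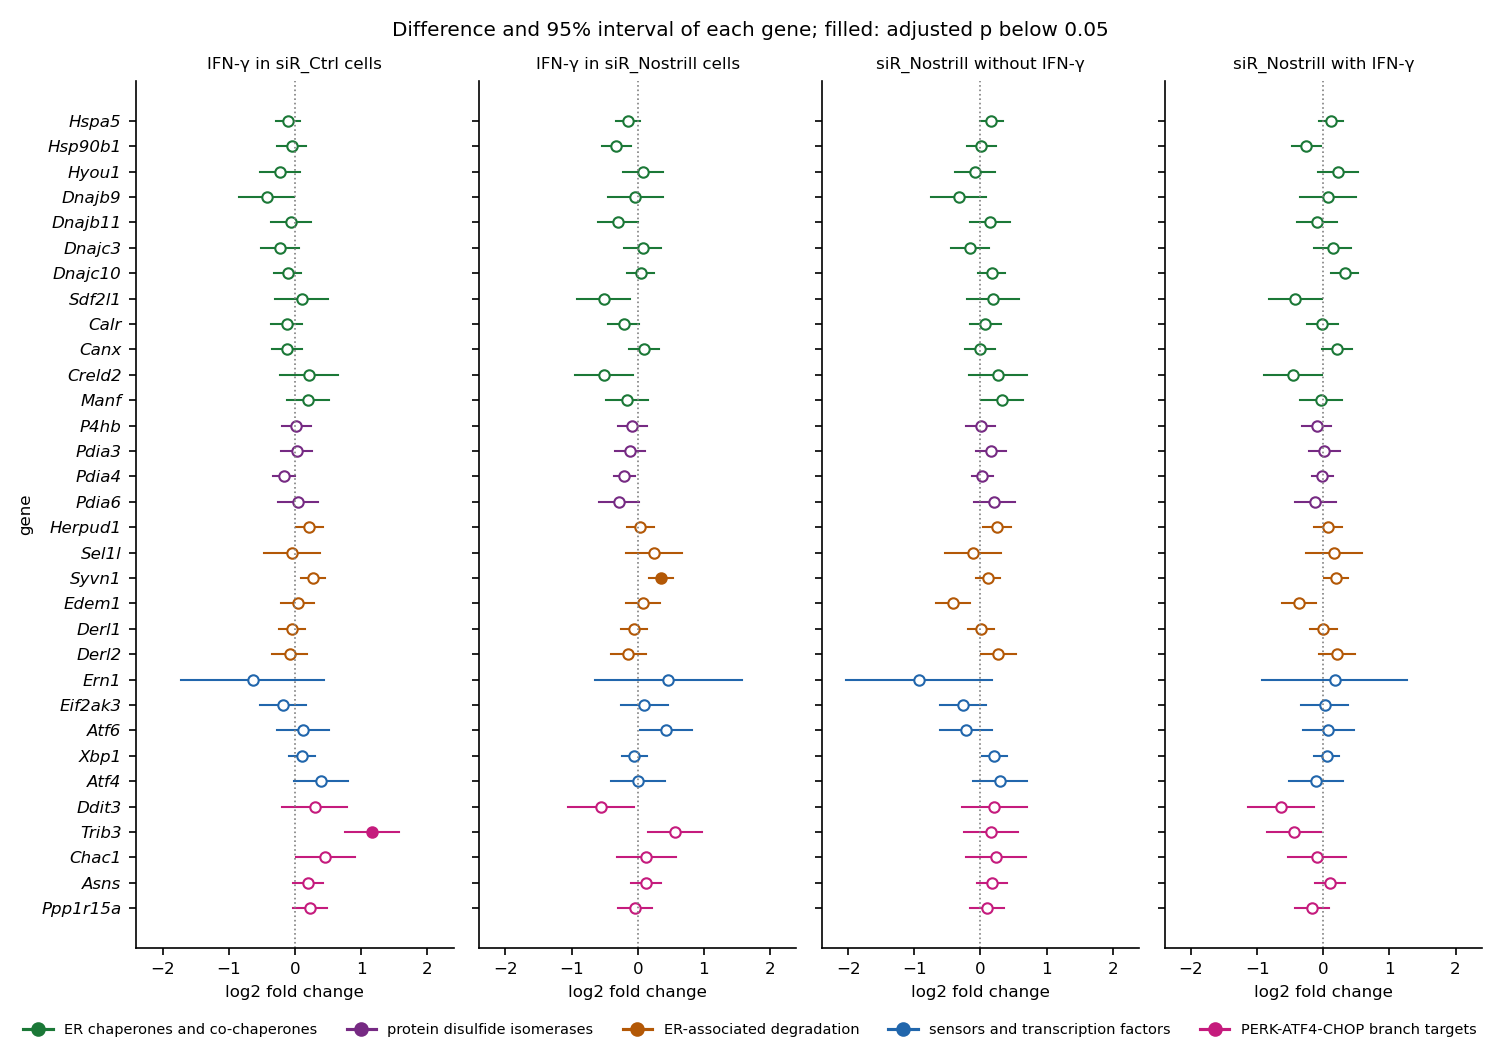
Log2 fold change (points) and 95% interval (lines) of each of the 32 genes in 4 comparisons, coloured by role, filled where the adjusted p was below 0.05. The filled points are Trib3 for IFN-γ in siR_Ctrl cells (1.16) and Syvn1 for IFN-γ in siR_Nostrill cells (0.35).

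The Nostrill siRNAs without IFN-γ gave no call in the set by edgeR's test (0 of 32, against 0.218% of all genes tested). There were 5 genes with an unadjusted p below 0.05 (15.6%), against 13.8% of all genes. DESeq2 called Edem1, against 2.56% of its genes, and limma on FPKM called none, against 0.189%. Removing the length trend left 1 gene, Dnajc10, called as higher (3.12%), against 3.47% of all genes. Edem1 was at 60.3, 45.5 and 54.3 CPM in siR_Ctrl and at 39.9, 39.2 and 41.4 CPM in siR_Nostrill libraries, without overlap (log2 fold change -0.41, standard error 0.11, adjusted p = 0.19 in edgeR). The value of Edem1, whose transcript is long, was -0.16 with the length trend removed (adjusted p = 0.35).

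The other 4 genes had positive values. Herpud1 was at 54.4, 55.9 and 59.4 CPM in siR_Ctrl and at 70.1, 65.8 and 65.5 CPM in siR_Nostrill libraries (0.25, standard error 0.09, adjusted p = 0.30). Xbp1 was at 36.8, 37.9 and 40.5 CPM and at 43.8, 44.8 and 44.7 CPM (0.21, standard error 0.08, adjusted p = 0.33). Neither gene overlapped between the groups. With the length trend removed, the differences of Herpud1 and Xbp1 were 0.13 and 0.14. Manf was at 120.1, 154 and 146 CPM and at 184, 185 and 156 CPM (0.32, standard error 0.14, adjusted p = 0.35), and with the length trend removed its value turned to -0.01. Derl2 was at 37.7, 46.3 and 44.1 CPM and at 55.7, 53.7 and 44.7 CPM, with overlap (0.27, standard error 0.12, adjusted p = 0.35). Ern1 had the widest interval of the set on the log2 scale, and ran from 6.94 to 20.3 CPM in siR_Ctrl and from 4.14 to 10.2 CPM in siR_Nostrill libraries, and its unadjusted p was above 0.05.

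With IFN-γ, siR_Nostrill and siR_Ctrl cells again did not differ in any gene of the set at an adjusted p below 0.05 in edgeR (0 of 32, against 0.429% of all genes tested). An unadjusted p below 0.05 was found for 8 (25%), against 14.5% of all genes. DESeq2 called Dnajc10, against 5.46% of its genes, and limma on FPKM called none, against 0.883%. Once the length trend was removed, 7 were called (21.9%), against 13.0% of all genes. Of these Dnajc10 was higher and Edem1, Creld2, Ddit3, Hsp90b1, Sdf2l1 and Trib3 were lower in siR_Nostrill cells.

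Dnajc10 was at 161, 146 and 172 CPM in siR_Ctrl + IFN-γ and at 195, 209 and 196 CPM in siR_Nostrill + IFN-γ libraries, without overlap (log2 fold change 0.33, standard error 0.09, adjusted p = 0.11 in edgeR). Edem1 was at 55.0, 49.0 and 60.6 CPM and at 44.0, 40.7 and 43.2 CPM, without overlap (-0.36, standard error 0.11, adjusted p = 0.15). Ddit3 was at 37.2, 61.2 and 36.3 CPM and at 23.8, 31.0 and 31.6 CPM (-0.64, standard error 0.22, adjusted p = 0.19). The groups of Ddit3 did not overlap, and its value was -0.36 without siR_Ctrl + IFN-γ replicate 2, the library with the highest level. Trib3 was at 52.6, 75.5 and 56.8 CPM and at 33.8, 46.7 and 55.8 CPM, with overlap (-0.44, standard error 0.18, adjusted p = 0.28). The value of Trib3 was -0.27 without siR_Ctrl + IFN-γ replicate 2 and also without siR_Nostrill + IFN-γ replicate 1.

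Hsp90b1 was at 941, 1052 and 893 CPM in siR_Ctrl + IFN-γ and at 741, 823 and 852 CPM in siR_Nostrill + IFN-γ libraries, without overlap (-0.26, standard error 0.10, adjusted p = 0.24). Sdf2l1 was at 26.6, 30.5 and 21.6 CPM and at 19.7, 17.2 and 21.7 CPM (-0.42, standard error 0.17, adjusted p = 0.29), and Creld2 at 98.6, 148 and 89.2 CPM and at 76.6, 79.9 and 89.2 CPM (-0.45, standard error 0.19, adjusted p = 0.30). Both overlapped between the groups. The value of Creld2 was -0.20 without siR_Ctrl + IFN-γ replicate 2. Syvn1 was at 63.6, 61.4 and 67.2 CPM and at 80.5, 69.4 and 69.7 CPM, without overlap (0.19, standard error 0.08, adjusted p = 0.30, and a difference of 0.12 without siR_Nostrill + IFN-γ replicate 1).

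Averaged over both IFN-γ states, the Nostrill siRNAs lowered Edem1, the only one of the 32 genes called (3.12%, against 2.16% of all genes tested). All 6 siR_Nostrill libraries (39.2 to 44.0 CPM) lay below all 6 siR_Ctrl libraries (45.5 to 60.6 CPM). The log2 fold change came to -0.39 (standard error 0.08, adjusted p = 0.033 in edgeR). The call was lost in 9 of the 12 fits that left out a library, with an adjusted p of up to 0.11, and held without siR_Ctrl replicate 1 (0.047), siR_Ctrl replicate 2 (0.023) or siR_Ctrl + IFN-γ replicate 2 (0.027). The log2 fold change of Edem1 was -0.44 to -0.34 over these fits, -0.29 with the length trend removed (adjusted p = 0.0076) and -0.32 in limma (adjusted p = 0.097).

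At an unadjusted p below 0.05 there were 7 genes in this average (21.9%), against 16.5% of all genes. Dnajc10 differed by 0.25 (standard error 0.06, adjusted p = 0.066 in edgeR), with siR_Nostrill libraries at 189 to 209 CPM and siR_Ctrl libraries at 146 to 189.7 CPM. Of the 12 fits that left out a library, edgeR called Dnajc10 in 1, without siR_Ctrl replicate 1 (adjusted p = 0.038). In the others its adjusted p was up to 0.18. Hspa5 differed by 0.14 (standard error 0.05, adjusted p = 0.21), Syvn1 by 0.15 (0.06, 0.20), Derl2 by 0.24 (0.08, 0.16), Herpud1 by 0.16 (0.06, 0.24) and Xbp1 by 0.13 (0.06, 0.30, edgeR). In the fit without the length trend 6 were called (18.8%), against 13.7% of all genes. Dnajc10, Canx, Syvn1 and Hspa5 were higher, and Edem1 and Ddit3 lower, in siR_Nostrill cells. DESeq2 called 3 (Edem1, Dnajc10 and Hspa5), against 6.65% of its genes, and limma none, against 2.49%.

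**Figure D5:**
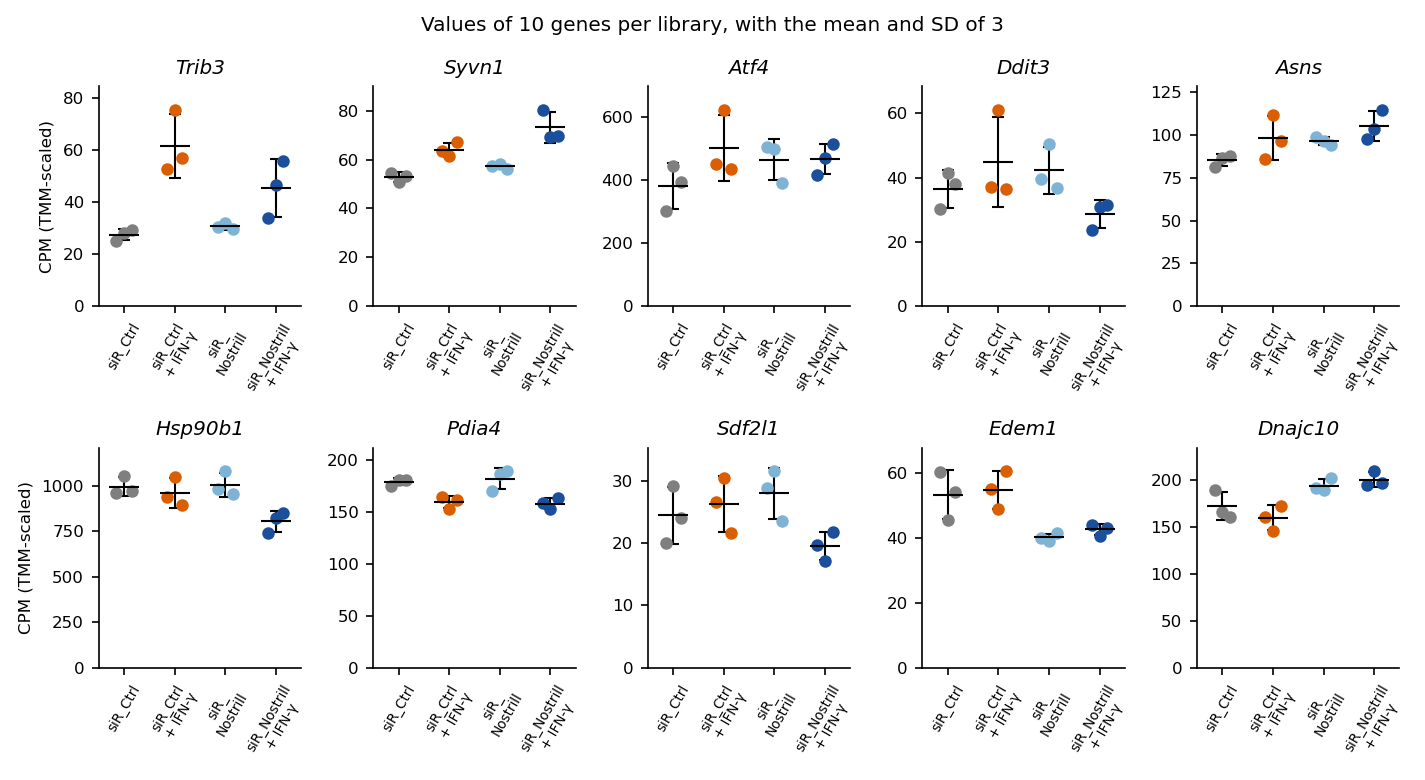
CPM per library (points), with the mean (bar) and SD (whiskers) of 3, for 10 genes in the 4 groups, on axes that start at 0. Trib3 reaches 52.6 to 75.5 CPM in siR_Ctrl + IFN-γ and 33.8 to 55.8 CPM in siR_Nostrill + IFN-γ libraries, and Edem1 stays at or below 44.0 CPM in the 6 siR_Nostrill libraries.

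Whether the Nostrill siRNAs altered the difference with IFN-γ was tested by the interaction, with negative values where the log2 fold change with IFN-γ was lower in siR_Nostrill cells. No gene passed, neither in the set nor over all genes tested (0 of 32 and 0% by edgeR, by DESeq2 and by limma on FPKM). No gene passed either once the length trend was removed (0% of all genes). At an unadjusted p below 0.05 there were 4 of 32 genes (12.5%), against 10.7% of all genes, all negative. Trib3 differed by -0.60 (standard error 0.25), which is its value of 0.56 in siR_Nostrill less that of 1.16 in siR_Ctrl cells. Ddit3 differed by -0.85 (0.30), Creld2 by -0.71 (0.27) and Sdf2l1 by -0.62 (0.24), each with an adjusted p of 0.43 in edgeR. Their 95% intervals ran from -1.18 to -0.02 for Trib3, from -1.55 to -0.15 for Ddit3, from -1.33 to -0.09 for Creld2 and from -1.18 to -0.06 for Sdf2l1. The values of these genes in that order were -0.46, -0.38, -0.39 and -0.23 with the length trend removed. That of Creld2 was -0.47 without siR_Ctrl + IFN-γ replicate 2. All 5 targets of the PERK-ATF4-CHOP branch had a value below 0 (median -0.33), beside a median of 0.01 over all genes tested. With the length trend removed Asns turned to 0.08 and the median was -0.19. The differing length trends of the libraries move with these values, and their part beyond the smooth trend removed was not tested.

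The summed TPM of the 5 branch targets was 226 ± 16.8 in siR_Ctrl, 265 ± 24.7 in siR_Ctrl + IFN-γ, 227 ± 12.8 in siR_Nostrill and 243 ± 21.8 in siR_Nostrill + IFN-γ (mean ± SD of 3 libraries). That of the 5 sensors and transcription factors, mostly Atf4, was 481 ± 5.09, 551 ± 27.4, 509 ± 17.5 and 569.9 ± 27.6 in the same order. In CPM, Atf4 went from 381 ± 72.6 to 503 ± 105 with IFN-γ in siR_Ctrl cells. It went from 465 ± 64.2 to 467 ± 49.0 CPM in siR_Nostrill cells. In TPM, however, Atf4 was higher with IFN-γ in both, at 423 ± 21.1 and 498 ± 30.2 in siR_Ctrl cells and at 459 ± 24.4 and 510 ± 32.1 in siR_Nostrill cells. The 12 chaperones summed to 3123 ± 420.3, 2690 ± 253, 2957 ± 265 and 2883 ± 134 TPM, the 4 isomerases to 1541 ± 177, 1391 ± 159, 1432 ± 107 and 1460 ± 33.9 TPM, and the 6 ERAD genes to 206 ± 31.5, 193 ± 26.9, 190.4 ± 16.2 and 219.6 ± 9.01 TPM. For the chaperones, the lowest siR_Ctrl library (2846) lay just above the highest siR_Ctrl + IFN-γ library (2845), and for the isomerases these groups overlapped. These TPM sums are not on the tested scale and need not follow it. In CPM, the median log2 fold change with IFN-γ was -0.11 in siR_Ctrl and -0.16 in siR_Nostrill cells for the chaperones. For the isomerases the medians were 0.02 and -0.16, although their TPM sum fell in siR_Ctrl and rose in siR_Nostrill cells. P4hb went from 1314 to 1240 CPM but from 678 to 713 TPM in siR_Nostrill cells.

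The wider pathway was described by lists of other genes. Of 29 tested genes among other ATF4 and CHOP targets, 3 were higher with IFN-γ in siR_Ctrl cells and the same number in siR_Nostrill cells by edgeR, and none was lower, beside 5.45% and 6.78% of all genes. In both they were Wars, Atf3 and Slc6a9. DESeq2 called 4 in siR_Ctrl cells (Cebpb, named after its result was seen, beside these; 6.33% of its genes) and limma 2 (Wars and Atf3; 4.76%), and in siR_Nostrill cells each tool called the same 3 (10.5% and 7.41%). The fit without the length trend gave 6 higher and 0 lower in siR_Ctrl cells (11.1% of all genes), and 3 higher and 1 lower in siR_Nostrill cells (18.9%). Wars, the tryptophanyl-tRNA synthetase, went from 58.0 ± 1.41 to 213 ± 13.6 CPM in siR_Ctrl cells (log2 fold change 1.88, standard error 0.07, adjusted p = 1.05e-08) and from 62.1 ± 1.32 to 250.5 ± 10.7 CPM in siR_Nostrill cells (2.01, standard error 0.07). Wars is also known as a gene induced by IFN-γ in many cells. Atf3, a stress-induced transcription factor, went from 8.90 ± 0.36 to 29.0 ± 4.52 CPM in siR_Ctrl cells (1.70, standard error 0.14, adjusted p = 7.03e-06) and from 9.39 ± 1.45 to 24.3 ± 1.79 CPM in siR_Nostrill cells (1.37, standard error 0.14). Slc6a9, a glycine transporter, rose by 0.35 (adjusted p = 0.045) and 0.39 (adjusted p = 0.023). Its call in siR_Ctrl cells was lost in limma (adjusted p = 0.18), with no filter on low counts (0.062), with the replicate number as a block (0.067), with only the groups compared (0.23) and in 11 of the 12 fits that left out a library, the exception being siR_Nostrill replicate 2. In siR_Nostrill cells it was lost without siR_Nostrill replicate 1 or 2 or any siR_Nostrill + IFN-γ library (adjusted p of up to 0.12). The median of the list was 0.18 in siR_Ctrl and 0.01 in siR_Nostrill cells. Between the siRNAs, edgeR called none of the 29 (1, 6 and 4 had an unadjusted p below 0.05 without IFN-γ, with it and averaged, beside 13.8%, 14.5% and 16.5% of all genes). DESeq2 called 1 as higher and 2 as lower with IFN-γ (together Cebpb, Gadd45a and Wars, named after their results were seen; 5.46% of its genes), and 2 as higher and 1 as lower averaged over both IFN-γ states (together Cebpb, Slc6a9 and Wars; 6.65%), where limma called none (0.883% and 2.49%). The fit without the length trend gave 1 higher and 3 lower with IFN-γ (13.0% of all genes) and 2 higher and 1 lower in the average (13.7%).

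Among 12 tested genes of other sensors, bZIP factors and eIF2α kinases, 1 was higher with IFN-γ in both kinds of cells, beside 5.45% of all genes in siR_Ctrl and 6.78% in siR_Nostrill cells, and 2 were higher in each with the length trend removed (11.1% and 18.9%). The gene called in both was Eif2ak2, the eIF2α kinase PKR, itself known as an interferon-induced gene, which went from 79.6 ± 7.32 to 235 ± 8.52 CPM in siR_Ctrl cells (1.56, standard error 0.08, adjusted p = 1.73e-07) and from 96.4 ± 0.61 to 271 ± 18.7 CPM in siR_Nostrill cells (1.49, standard error 0.08). Eif2s1, which encodes eIF2α, fell by 0.32 (standard error 0.06, adjusted p = 0.018) with the Nostrill siRNAs averaged over both IFN-γ states, where 2.16% of all genes were called, and 3 genes of the list were higher and 1 lower with the length trend removed (13.7%). This call was lost without siR_Ctrl + IFN-γ replicate 1, siR_Nostrill replicate 2 or any siR_Nostrill + IFN-γ library (adjusted p of up to 0.071). In the same average DESeq2 called Eif2s1 as lower and Eif2ak2 as higher (6.65% of its genes), and limma called Eif2s1 alone (2.49%). DESeq2 also called Eif2s1 as lower without IFN-γ (2.56%) and with it (5.46%), where limma called none of the list (0.189% and 0.883%). Of 21 tested genes of other ERAD, 1 was higher with IFN-γ in siR_Nostrill cells by edgeR, Rnf139, an ER ubiquitin ligase (0.62, standard error 0.11, adjusted p = 0.0034), beside 6.78% of all genes, and none in siR_Ctrl cells (5.45%). Rnf139 was also called by edgeR for IFN-γ averaged over both siRNAs (0.38, standard error 0.07, adjusted p = 0.0054), beside 9.21% of all genes. None of the 21 was called in the interaction. In siR_Nostrill cells limma also called Rnf139 alone (7.41%), and DESeq2 called it and, as lower, Vcp, the ATPase that draws proteins out of the ER membrane (named after its result was seen; 10.5%). After removal of the length trend, 2 were higher in siR_Nostrill cells (18.9% of all genes) and 0 in siR_Ctrl cells (11.1%). The 23 genes of the translocon and signal peptide processing, the 18 of N-glycosylation and lectin quality control and the 20 of oxidative folding and prolyl isomerases gave 0 calls by edgeR in any of the 7 comparisons, and at an unadjusted p below 0.05 they gave at most 4, 5 and 6 genes in a comparison, numbers reached for siR_Nostrill averaged over both IFN-γ states, where 16.5% of all genes had such a p. DESeq2 called at most 2 genes of each of these lists in a comparison, reached in siR_Nostrill with IFN-γ (5.46% of its genes) or siR_Nostrill averaged (6.65%), and limma on FPKM called 1 in all, Srp14 of the signal recognition particle (named after its result was seen), as lower with IFN-γ in siR_Nostrill cells (7.41% of the genes it tested). With the length trend removed, siR_Nostrill averaged over both IFN-γ states had 4 higher and 1 lower, 5 higher and 0 lower, and 1 higher and 2 lower genes in these lists, beside 13.7% of all genes. In the same fit siR_Nostrill with IFN-γ had 4 higher and 1 lower, 6 higher and 0 lower, and 2 higher and 2 lower genes, beside 13.0% of all genes, and the other comparisons had at most 3 in a list.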

How the data were processed

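Total RNA of 12 IEC4.1 libraries (4 groups, 3 replicates each) had been sequenced by DNBSEQ after mRNA was selected by oligo(dT). The study's methods name SOAPnuke for filtering, HISAT2 and Bowtie2 for alignment to GRCm38.p6, and GATK, and the counting tool was not given in the sources used here. For each gene and library the authors deposited an estimated count, not normalized, and also deposited FPKM and TPM values, which are scaled for transcript length and depth. Between 90.6% and 91.6% of the estimated counts per library were whole, and all were rounded.

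Counts were tested with edgeR 4.0.16 in R 4.3.3 (quasi-likelihood test, TMM, filterByExpr, a single fit of the 12 libraries, Benjamini-Hochberg over 11900 genes, threshold 0.05). Standard errors and 95% intervals come from that fit. CPM values are TMM-scaled. TPM served to compare levels between genes and to sum marker genes and role groups per library, and no test was run on it. Replicates of a group differed by a chi-square per degree of freedom of 6.72 to 101, so each library counted as 1 replicate. Alternatives were DESeq2 1.42.0, its size factors in edgeR, no filter or a mean of at least 5 CPM, the replicate number as a block, limma 3.58.1 on log2(FPKM + 1) where the mean FPKM was 0.5 or more, only the groups compared, removal of the length trend (lowess per library, span 0.3, as offsets) and leaving out each library. The scripts were tested on simulated data, in which edgeR recovered slightly fewer changed genes than the limit first set, and that limit was lowered after this was seen. All 33 genes are named; a fold change with its test is given for genes with an unadjusted p below 0.05, for role groups by range, and for at most the 3 called genes with the smallest p per further list and comparison. The genes, lists and tests were chosen with earlier results of these data known. Promoters, coordinates and overlaps come from RefSeq tables of GRCm38.p6, the build of the alignment.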

Additional observations from a re-analysis of the deposited data

How the results depend on the processing

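Trib3 for IFN-γ in siR_Ctrl cells, and Trib3 and Syvn1 for IFN-γ averaged over both siRNAs, stayed called under each alternative run and without each library. With DESeq2 the calls among the 32 genes numbered 2 for IFN-γ in siR_Ctrl cells, 6 for IFN-γ in siR_Nostrill cells, 1 each for siR_Nostrill without and with IFN-γ, 5 for IFN-γ averaged and 3 for siR_Nostrill averaged, where 6.33%, 10.5%, 2.56%, 5.46%, 11.1% and 6.65% of all genes were called. With the length trend removed the numbers in the same order were 4, 6, 1, 7, 8 and 6, beside 11.1%, 18.9%, 3.47%, 13.0%, 20% and 13.7% of all genes. For IFN-γ in siR_Nostrill cells there were 8 calls with only the groups compared (17% of all genes) and 3 with limma on log2(FPKM + 1) (7.41%), and limma gave 0 for siR_Nostrill averaged (2.49%). Other size factors and filters kept each number within 1.5 times, although Pdia4 for IFN-γ averaged was not called without a filter (2 calls, beside 6.92% of all genes). Without one library each, calls ranged from 0 to 2 for IFN-γ in siR_Nostrill cells (4.08% to 9.47% of all genes) and from 0 to 2 for siR_Nostrill averaged over both IFN-γ states (0.69% to 2.11%). Manf for siR_Nostrill without IFN-γ turned from 0.32 to -0.010 once the length trend was removed. Where counts moved with the length trend or another tool, the cause was not tested beyond what those fits show.

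With the replicate number as a block, 2 genes were called for IFN-γ in siR_Nostrill cells (Syvn1 and Ddit3, beside 7.92% of all genes), 2 for IFN-γ averaged (9.31%; Pdia4 was not, adjusted p = 0.050), and no other call among the 32 genes changed. The labels give no pairing, and the numbers were not taken to pair libraries, since the correlation of deviations from group means was above 0.1 in 8 of 18 same-numbered pairs (-0.49 to 0.73, median -0.09), against 14 of 36 differently numbered ones (-0.81 to 0.77, median 0.02). At 17824306 to 19093204 reads per library Ern1, the gene of lowest TPM, had the widest interval on the log2 scale in each comparison, although Dnajb9 had fewer reads in 3 of the 4 groups.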

Other observations

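Genes of the cytosolic and mitochondrial protein stress responses were looked at beside those of the ER. Of 14 tested cytosolic heat shock genes, 2 were lower with IFN-γ averaged over both siRNAs by edgeR's test with Benjamini-Hochberg adjustment, beside 9.21% of all genes called in either direction. Hsph1, which encodes a large HSP110 chaperone, fell by 0.35 on the log2 scale (standard error 0.08, adjusted p = 0.016), from 431 ± 44.6 to 329 ± 38.4 CPM in siR_Ctrl cells and from 364 ± 18.6 to 294 ± 29.3 CPM in siR_Nostrill cells (SD, n = 3 each). Hspa1b, an inducible HSP70, fell by 0.31 (standard error 0.07, adjusted p = 0.021), from 61.9 ± 4.48 to 51.4 ± 2.16 CPM and from 48.5 ± 5.88 to 38.2 ± 3.31 CPM. Both calls were lost without siR_Nostrill + IFN-γ replicate 2 or 3 (adjusted p of up to 0.051 for Hsph1 and 0.070 for Hspa1b). With the Nostrill siRNAs averaged over both IFN-γ states, Hspa1b fell by 0.39 (standard error 0.07, adjusted p = 0.025), while Hsf1, the heat shock transcription factor, rose by 0.26 (standard error 0.05, adjusted p = 0.036), from 107 ± 5.47 to 126 ± 6.42 CPM without IFN-γ, beside 2.16% of all genes called. These 2 calls depended on single libraries. That of Hspa1b was lost in limma (adjusted p = 0.060) and in 7 of the 12 fits that left out a library, holding when siR_Nostrill replicate 3, siR_Nostrill + IFN-γ replicate 1, siR_Ctrl replicate 1 or 3 or siR_Ctrl + IFN-γ replicate 2 was left out. That of Hsf1 was lost with no filter on low counts (0.050), with the replicate number as a block (0.052) and in 9 of the 12, holding when siR_Nostrill replicate 3 or the second replicate of siR_Ctrl or of siR_Ctrl + IFN-γ was left out. With the length trend removed, 4 of the 14 were lower with IFN-γ in the average over both siRNAs, and none was higher, beside 20% of all genes. In the same fit siR_Nostrill averaged over both IFN-γ states had 2 higher and 4 lower, beside 13.7% of all genes, siR_Nostrill with IFN-γ 2 higher and 3 lower, beside 13.0%, and IFN-γ in siR_Nostrill cells 0 higher and 3 lower, beside 18.9%. For IFN-γ averaged, DESeq2 and limma each called 3 as lower, Hspa8 (named after its result was seen) beside the 2 of edgeR, where they called 11.1% and 9.59% of their genes. For siR_Nostrill averaged, DESeq2 called 1 as higher and 2 as lower (6.65%) and limma only Hsf1, as higher (2.49%). Hspa1b has the near-identical copy Hspa1a, and no source used here says how reads shared by both were counted.

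Of 11 tested mitochondrial chaperones and proteases, none was called in any of the 7 comparisons by edgeR, and at most 2 reached an unadjusted p below 0.05 in a comparison, namely IFN-γ averaged, where 19.9% of all genes did. DESeq2 called 1, Lonp1, a mitochondrial protease, as lower in siR_Nostrill than in siR_Ctrl cells with IFN-γ (5.46% of its genes), and limma on FPKM called 1, Hspd1, the chaperonin HSP60, as lower with IFN-γ averaged over both siRNAs (9.59%). Lonp1 and Hspd1 are named because these tools called them, which was seen before they were chosen. The median log2 fold change with IFN-γ was 0.00 in siR_Ctrl and -0.15 in siR_Nostrill cells. With the length trend removed 1 of the 11 was lower with IFN-γ in each kind of cell, beside 11.1% of all genes in siR_Ctrl and 18.9% in siR_Nostrill cells.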
